A study of Mus musculus with 179 samples.

Results

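The genes described here encode complex III, complex IV and the ATP synthase of the mitochondrial respiratory chain, together with a few genes that share only their name stem. They were taken by name: every gene whose symbol starts with Uqcr, Atp5 or Cox4 to Cox8, without entries marked as pseudogenes by the suffix -ps, matched by Ensembl identifier across the 3 expression tables. The rule found 45 of 37991 genes in the male ventral tegmental area (VTA) table, 24 of 16239 in the male nucleus accumbens (NAc) table and 45 of 32421 in the table of the other libraries. By role, 8 belong to complex III, 18 to complex IV and 15 to the ATP synthase. The other 4 carry the name only: Atp5l2 is listed as a pseudogene, Atp5s and Atp5sl are coupling factor B and its relative, and Cox4nb is the neighbour of Cox4i1 and a subunit of the endoplasmic reticulum membrane complex.

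The study measured poly-A RNA in 163 libraries of mouse brain in 30 groups (strain C57BL/6, named C57Bl6/j outside male VTA), with tissue taken in adulthood 24 hours after behavioural testing. Mice were reared under standard conditions or had early life stress (ELS) from postnatal day 10 to 20, with a second ELS window from day 2 to 12 in male NAc only, and the labels give no window for male VTA. As adults, males were controls or went through chronic social defeat, and females were controls or went through sub-threshold variable stress (STVS). Regions were VTA and NAc in both sexes, prefrontal cortex (PFC) in both sexes, and hippocampus (HIP) in males. Each male VTA and male NAc library pooled 3 mice, and each of the others came from 1 mouse. Groups held 4 to 6 libraries. Per the series' design text, all males came from 1 cohort and all females from a separate one, so sex and cohort cannot be told apart. Whether 2 regions came from the same mouse is not given in the labels.

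Complex III passes electrons from ubiquinol to cytochrome c and pumps protons, complex IV passes them on to oxygen and pumps more, and the ATP synthase uses the proton gradient to make ATP. The core catalytic subunits of complex IV, cytochrome b of complex III and a few ATP synthase subunits are encoded in mitochondrial DNA, while the genes described here are nuclear. The name rule does not take every nuclear subunit: cytochrome c1 of complex III, for example, has another stem. Neurons spend much of their energy on ion pumping and depend on this chain. Several complex IV subunits exist as a form found in most tissues and a form found in few: Cox6a2, Cox7a1 and Cox8b are best known from heart and skeletal muscle, Cox4i2 from lung, and Cox6b2, Cox7b2 and Cox8c from testis.

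Stretches upstream of 4 members are shown because values below turn on these genes: a widely used complex IV form (Cox6a1), complex III subunits that were high in VTA or HIP (Uqcrh, Uqcr11) and a form that followed another tissue (Cox8b). They are the 250 bases before the gene start on the gene's strand, from RefSeq on GRCm38.p6. Capitals mark matches to short core letters of known factors on either strand. In Cox6a1 (chr5:115348959-115349208, minus strand) they mark 2 overlapping matches to GCGCATGC, a core of the NRF1 motif. In Uqcr11 (chr10:80406822-80407071, minus strand) and Uqcrh (chr4:116075071-116075320, minus strand) they mark CCGGAAGT, an ETS core. In Cox8b (chr7:140900447-140900696, minus strand) they mark CAGCTG, an E-box.
Cox6a1: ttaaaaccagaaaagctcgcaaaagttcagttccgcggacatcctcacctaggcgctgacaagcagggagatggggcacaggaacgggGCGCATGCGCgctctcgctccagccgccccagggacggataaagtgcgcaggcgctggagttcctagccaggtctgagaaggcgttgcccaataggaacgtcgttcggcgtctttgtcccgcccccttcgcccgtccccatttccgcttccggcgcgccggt
Uqcr11: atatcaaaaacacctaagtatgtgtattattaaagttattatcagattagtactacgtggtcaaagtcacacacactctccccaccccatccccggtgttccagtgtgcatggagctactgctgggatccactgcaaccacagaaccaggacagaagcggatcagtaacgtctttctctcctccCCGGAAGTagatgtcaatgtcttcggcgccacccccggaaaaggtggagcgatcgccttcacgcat
Uqcrh: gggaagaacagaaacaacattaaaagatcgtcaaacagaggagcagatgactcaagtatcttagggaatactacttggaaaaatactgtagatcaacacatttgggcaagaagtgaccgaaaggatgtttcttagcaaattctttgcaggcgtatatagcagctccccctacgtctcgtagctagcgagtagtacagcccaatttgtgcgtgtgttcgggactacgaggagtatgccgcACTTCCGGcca
Cox8b: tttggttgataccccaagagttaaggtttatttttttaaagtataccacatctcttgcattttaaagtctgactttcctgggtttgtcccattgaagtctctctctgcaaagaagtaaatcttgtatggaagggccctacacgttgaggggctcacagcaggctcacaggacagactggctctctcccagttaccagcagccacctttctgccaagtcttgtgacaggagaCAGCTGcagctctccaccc
NRF1 and the ETS factor GABP are known regulators of nuclear respiratory genes. Of the 38 genes used below as the expressed subunits, 29 had a RefSeq promoter window of 300 bases (250 before and 50 after the start). The NRF1 core was in 6 of these 29 (20.7%) and in 2.8% of 27025 promoters: Atp5g2, Atp5k, Atp5l, Cox6a1, Uqcr11 and Uqcrc1. The ETS core was in 4 of 29 (13.8%) and in 4.0% of all promoters: Atp5h, Cox8a, Uqcr11 and Uqcrh. A YY1 core (AAGATGGC) was in 1 of 29 (Atp5j2; 2.88% of all), the E-box in 1 of 29 (Atp5b; 16.1% of all), and a MEF2 core (TAAAAATA) in 0 of 29 (2.71% of all). A match is a description of these letters and shows no binding. Some members have near-identical copies elsewhere in the genome, which leaves their counts uncertain. The libraries are unstranded, and Cox4nb (chr8:120653914-120668087) lies next to Cox4i1 (chr8:120668225-120674209, both mm10).

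Levels of different genes can be compared only per transcript length, which the male VTA table gives as RPKM (reads scaled to transcript length and library size). In the 20 male VTA libraries, 24 of the 45 genes were among the 500 of highest mean RPKM. All 45 held 1.61% of the summed RPKM. Cox4i1, the common form of subunit 4 of complex IV, was highest at 601.5 ± 42.5 RPKM (SD, n = 20), rank 30 of all genes. Cox6b1 followed with 396.0 ± 38.3 RPKM. Next were the beta and alpha subunits of the ATP synthase, Atp5b (352.1 ± 22.0 RPKM) and Atp5a1 (351.7 ± 18.2 RPKM), which lay within each other's spread. Complex III was led by its core protein Uqcrc1 at 170.7 ± 8.29 RPKM. The lowest of the usual subunits was Atp5g1 at 26.0 RPKM. It is 1 of 3 genes for the same subunit c, and the others stood at 96.7 ± 3.69 RPKM (Atp5g2) and 133.6 ± 9.33 RPKM (Atp5g3).

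The tissue-restricted forms were low. Cox7a1 averaged 7.16 RPKM, Cox6b2 3.36, Cox4i2 1.67, Cox6a2 1.57, Cox8b 0.656 and Cox7b2 0.244 RPKM, and Cox8c was listed at 0. The Cox6a2 mean rested on 1 library: ELS control 2 held 13.25 RPKM, against 0.425 to 2.90 RPKM in the other 19, whose mean was 0.959 RPKM. Its Cox6a1 level, 368.6 RPKM, lay inside the range of the others (275.5 to 383.8). The same library had the lowest Th (110.3 RPKM, others 124.3 to 356.5) and Slc6a3 (135.4 RPKM, others 158.0 to 464.5), which mark dopamine neurons, and Slc17a7, a marker of glutamate neurons, at 31.4 RPKM against a median of 2.65 and a highest other library of 62.0. Their part in the Cox6a2 value was not tested. The 38 subunits with a mean of at least 1 RPKM here, low forms included, are the expressed subunits averaged below (Cox6a2 reaches that level only through ELS control 2), and 19 of them are in the male NAc table.

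**Figure D1:**
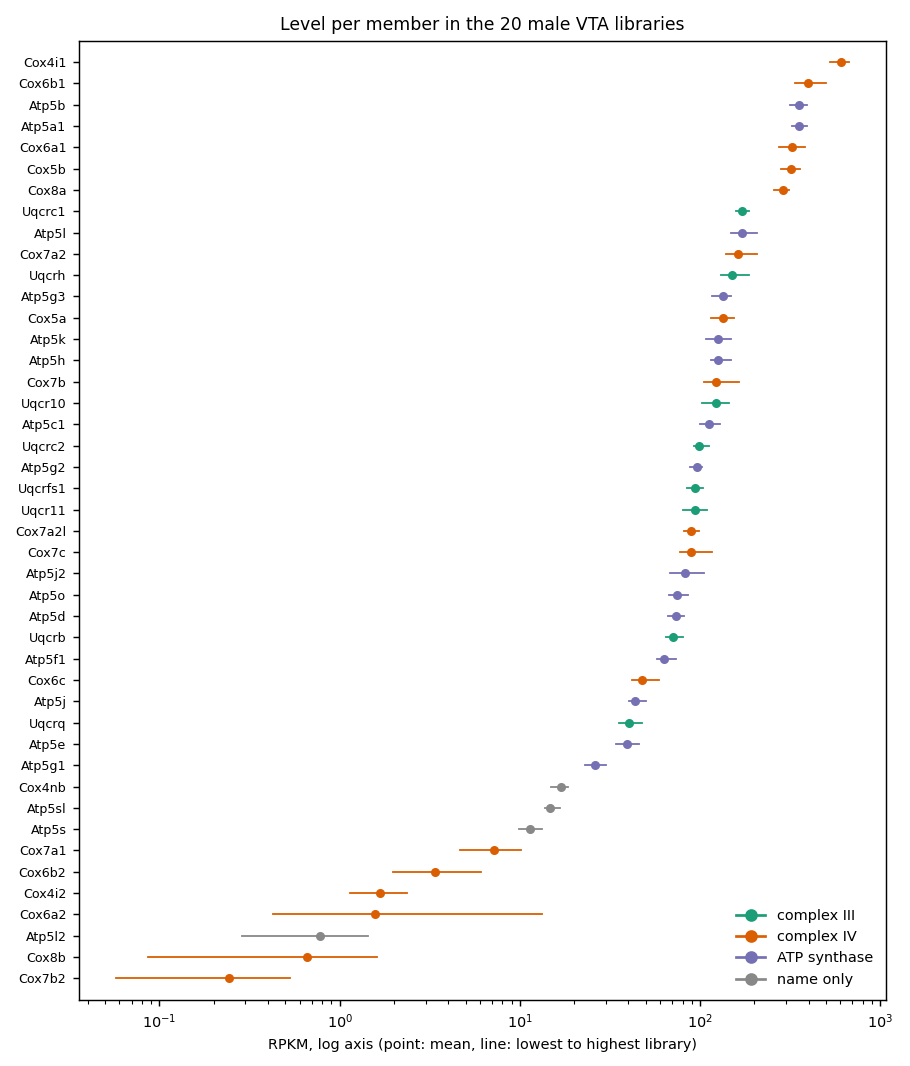
Mean RPKM of each member over the 20 male VTA libraries (points) with the lowest and highest library (lines), on a log axis, coloured by complex, without Cox8c, which is at 0. The common subunits run from 26.0 to 601.5 RPKM, and the line of Cox6a2 reaches up to 1 library at 13.25 RPKM.

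The other libraries are in normalised reads, gene counts divided by 1 factor per library, so each gene is compared only with itself. Depth, summed over the genes listed, was 13.6 to 23.9 M reads in male NAc and 19.2 to 42.7 M reads elsewhere, and is unknown for male VTA. Male NAc has 16239 genes listed and the other libraries 32421, so these ranges do not compare sequencing depth like for like. The share of reads on the 45 genes differed by region, with medians of 0.693% in female VTA, 0.618% in male HIP, 0.583% in female NAc, 0.553% in male PFC and 0.533% in female PFC. Region markers went with the labels in the standard controls: the dopamine neuron list (6 of 6 genes tested) was higher in female VTA than in female NAc and PFC, with median log2 differences of 7.40 and 8.51. By a marker rule, 14 libraries stood apart for the other sex's genes or for the choroid plexus gene Ttr over 10000 normalised reads. Ttr reached at most 417.2 in male PFC, 75.2 in female PFC and 8281 in female VTA, so libraries there met only the sex-gene part. In male PFC these were standard controls 1 and 4 and standard defeat 4. In females they were VTA standard control 3 and standard STVS 3, and PFC standard STVS 3. The standard controls among them enter the comparisons of region and sex below. The table of male NAc has no Ttr, so the Ttr part of the rule could not be applied there. To male VTA, in RPKM, no part of the rule was applied. Where leaving these libraries out moved a median by over 1.5 times or ended a call, the value without them is given.

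Between regions, the subunits were higher in female VTA. Across standard controls (6 libraries a group), VTA had more RNA than NAc for most members, by a median log2 difference of 0.31 on the log2(normalised reads + 1) scale (all genes 0.03). Of the 38 members tested, 29 were called higher and 2 lower in VTA by limma (Benjamini-Hochberg adjusted p under 0.05), where 42.3% of the 14000 genes tested were called higher and 38.3% lower. Against PFC the median was 0.36 (all genes 0.01), with 30 members called higher and 2 lower, beside 39.8% and 38.5% of all genes. Both counts of higher members include 3 genes that carry the name only (Atp5s, Atp5sl and Cox4nb). Quantile normalisation moved the second median to 0.48. Without the libraries that stood apart, 29 and 32 members were called in all. Among the 38 expressed subunits, a different set without the name-only genes, VTA had the highest of the 3 female means for 32, NAc for 4 and PFC for 2. For all genes these shares were 39.0%, 31.7% and 29.3%. In bulk tissue, fewer cells of a type and less RNA per cell cannot be told apart.

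All 3 complexes took part. Against NAc, 5 of 8 complex III genes were called higher, 9 of 12 complex IV genes and 12 of 15 ATP synthase genes. Against PFC the counts were 6 of 8, 9 of 12 and 12 of 15. Cox5a, subunit 5a of complex IV, differed most among the higher genes between VTA and NAc. Its standard control libraries held 2425, 1880, 2744, 2476, 1993 and 2688 normalised reads in VTA and 1637, 1364, 1462, 1268, 1468 and 1432 in NAc. The groups did not overlap, and the log2 difference was 0.71 ± 0.07 (SE; limma adjusted p = 1.01e-13), or 1.65-fold in means. Next came Cox7b (0.66 ± 0.08), Cox6b1 (0.61 ± 0.09), Atp5o, the oligomycin sensitivity conferring protein that ties the ATP synthase head to its stalk (0.58 ± 0.07), and Uqcrc1 (0.57 ± 0.06), all log2 differences ± SE.

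Against PFC the largest difference was in Uqcrh, the hinge protein of complex III. VTA libraries held 4254, 3819, 4454, 4188, 3947 and 4531 normalised reads and PFC libraries 2793, 2567, 2601, 2358, 2401 and 2622. Every VTA library lay above every PFC library, with a log2 difference of 0.72 ± 0.07 (SE; limma adjusted p = 4.59e-14). Cox5a (0.64 ± 0.07), Cox7b (0.57 ± 0.08), Cox6b1 (0.54 ± 0.09) and Cox4nb (0.54 ± 0.04) followed. All VTA libraries lay above all NAc libraries for 19 of the 38 expressed subunits and below for 1, where 33.6% and 30.0% of all genes did so. Against PFC the counts were 24 and 2, beside 30.8% and 30.0% of all genes.

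**Figure D2:**
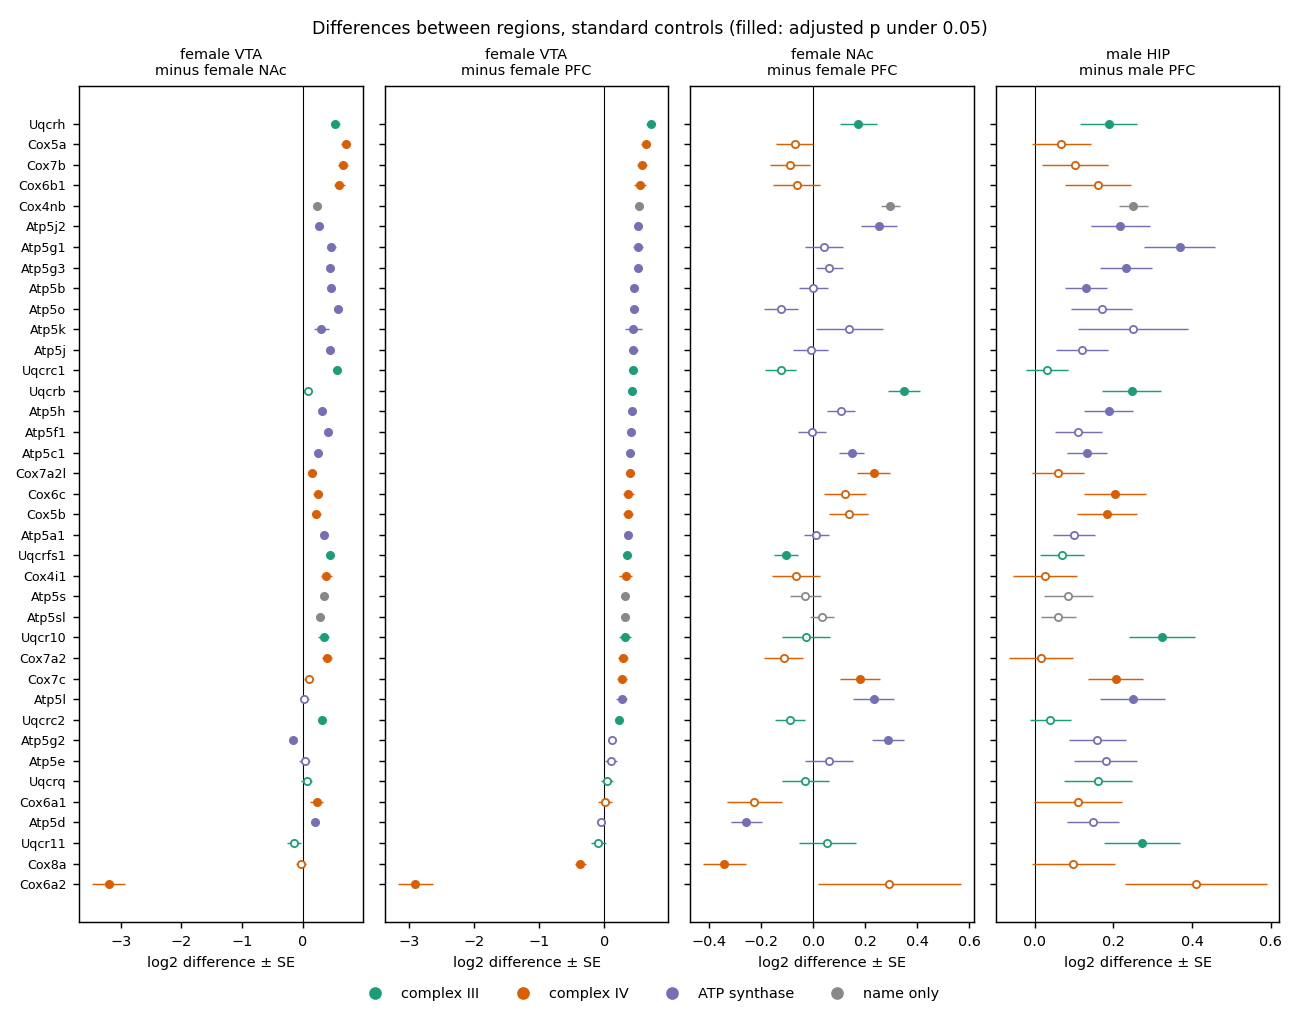
Log2 difference ± SE per member between standard controls of 2 regions, in 4 panels whose x axes differ, filled where limma's adjusted p is under 0.05. In the VTA panels nearly all points lie right of 0 and Cox6a2 alone lies near -3, while the NAc minus PFC panel is split around 0.

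Cox6a2 went the other way, and by far more. This form of subunit 6a replaces Cox6a1 in striated muscle. Standard control VTA libraries held 14.5, 7.17, 20.0, 4.64, 9.67 and 7.46 normalised reads, NAc libraries 109.8, 76.1, 88.4, 72.5, 111.1 and 127.7, and PFC libraries 96.8, 77.0, 85.2, 64.7, 65.4 and 82.5. VTA did not overlap with either region. The mean was 9.24-fold higher in NAc and 7.44-fold higher in PFC than in VTA, with log2 differences for VTA of -3.20 ± 0.28 (SE; limma adjusted p = 3.29e-16) and -2.91 ± 0.28 (limma adjusted p = 1.39e-14). Over all conditions, the 22 female VTA libraries ran from 4.64 to 39.2 normalised reads, below every NAc library (62.7 to 160.0) and every female PFC library (48.6 to 136.3). The 2 highest VTA libraries were ELS control 3 (39.2) and ELS control 4 (24.6). NAc and PFC did not differ detectably for Cox6a2 (log2 difference 0.29 ± 0.28, limma adjusted p = 0.344).

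The common partner Cox6a1 was slightly higher in VTA than in NAc (0.23 ± 0.11, limma adjusted p = 0.0421). Cox8a, the usual subunit 8 of complex IV, was lower in VTA than in PFC (6205 ± 297 against 8053 ± 1000 normalised reads, SD, n = 6) by a log2 difference of -0.37 ± 0.08 (limma adjusted p = 5.63e-05), and its difference between VTA and NAc was not called. After quantile normalisation the difference from PFC was -0.17 and not called. Atp5g2 was lower in VTA than in NAc by -0.17 ± 0.06 (limma adjusted p = 0.0124), while the other genes for subunit c were higher there, Atp5g1 by 0.48 ± 0.07 and Atp5g3 by 0.45 ± 0.05. The call for Atp5g2 is lost without NAc standard control 5 (-0.13). The 3 genes for 1 protein thus had unlike region patterns.

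Forms below the 14000-gene filter were fitted with no filter. Cox7a1 held 63.3 ± 6.397 normalised reads in VTA against 13.6 ± 3.42 in NAc and 19.6 ± 6.21 in PFC (SD, n = 6), so VTA was 4.65-fold and 3.24-fold higher (limma adjusted p = 2.91e-13 and 8.40e-10). Cox6b2 was also highest in VTA (51.0 ± 9.82), then NAc (30.2 ± 6.60) and PFC (15.8 ± 4.94). Each step was called (limma adjusted p = 0.00158 for VTA against NAc and 0.000176 for NAc against PFC). Cox4i2 was highest in NAc at 50.2 ± 10.2 normalised reads, called above PFC (32.1 ± 5.46; limma adjusted p = 0.00998) and not above VTA (36.9 ± 4.59; limma adjusted p = 0.0858). Cox8b was called higher in VTA (8.33 ± 5.26) than in NAc (2.04 ± 1.18; limma adjusted p = 0.00352) and PFC (0.324 ± 0.502; limma adjusted p = 8.17e-07). Over all conditions Ttr had medians of 255.6 normalised reads in VTA (up to 8281), 37.2 in NAc and 9.10 in PFC, and its part in the Cox8b difference was not tested. Cox7b2 had group means of 4.59 to 6.71 normalised reads, with no difference called. Cox8c had 0 reads in all 18 of these libraries.

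NAc and PFC were closer to each other. The median member difference was 0.02, with 9 of 38 called higher in NAc (35.5% of all genes) and 3 lower (34.3% of all genes). The higher ones were led by Uqcrb (0.35 ± 0.06), Cox4nb (0.30 ± 0.04) and Atp5g2 (0.29 ± 0.06). The lower ones were Cox8a (-0.34 ± 0.08), Atp5d, the delta subunit of the ATP synthase head (-0.26 ± 0.06), and the Rieske iron-sulfur protein Uqcrfs1 (-0.11 ± 0.05). Uqcrfs1 lost its call with no filter, after quantile normalisation and when any of 7 libraries was left out (NAc 1, 2, 4 or 5, or PFC 1, 2 or 3; -0.10 to -0.09). With the mean of all 4 condition groups in place of the standard controls, 24 members were called in place of 12.

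In males, HIP stood above PFC by a median of 0.16 (all genes 0.01). Of 38 members tested, 15 were called higher (24.7% of all genes) and 0 lower (23.7% of all genes) by limma: 7 of 15 ATP synthase genes, 4 of 8 of complex III, 3 of 12 of complex IV and Cox4nb. Atp5g1 had 4520, 3416, 3330, 4459, 3597 and 4130 normalised reads in HIP and 3259, 3132, 2770, 3366, 2514 and 3087 in PFC. The groups overlapped, and the log2 difference was 0.37 ± 0.09 (SE; limma adjusted p = 0.000876). Uqcr10 (0.32 ± 0.08), Uqcr11 (0.27 ± 0.10), Cox4nb (0.25 ± 0.04) and Atp5l (0.25 ± 0.08) followed. Without the libraries that stood apart the count was 13, the median was 0.19, Atp5g1 stood at 0.27 and Uqcr11 (0.27) lost its call. Without PFC standard control 5, where all 38 expressed subunits lay below their group's median, the count fell to 7 and Uqcr11 (0.23) lost its call. Quantile normalisation gave 25, and the mean of all 4 condition groups 24. PFC of the 2 sexes gave 0 members called in either direction, beside 0.05% of all genes higher and 0.0286% lower in females. The median member difference was -0.04, or -0.003 without the libraries that stood apart. At an unadjusted p under 0.05 the limma count was 0 members and 976 genes, and edgeR called 0 members.

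Other steps of the chain had counts of the same kind. Complex I, the first proton pump, had 30 of 36 genes called higher in VTA than in NAc and 33 of 36 than in PFC (0 lower in both; medians 0.32 and 0.38), and 19 of 36 higher in HIP than in PFC. The shares of all genes called higher in these comparisons were 42.3%, 39.8% and 24.7%, and those called lower in VTA were 38.3% and 38.5%. All 4 complex II genes were called higher in VTA in both comparisons, as were 11 and 10 of 11 citric acid cycle genes (medians 0.48 and 0.46). Of 10 assembly factors of complex IV tested, 5 were called higher and 3 lower against NAc, and 4 and 3 against PFC, shares near those of all genes. Of 10 regulators of mitochondrial biogenesis, 4 were called higher and 6 lower in VTA than in NAc. Cell type markers moved with the same comparisons. All 9 oligodendrocyte genes were called higher in VTA (medians 1.63 against NAc and 3.50 against PFC), and all 7 microglia genes were called lower against NAc (median -0.57). Their part in the subunit differences was not tested.

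**Figure D3:**
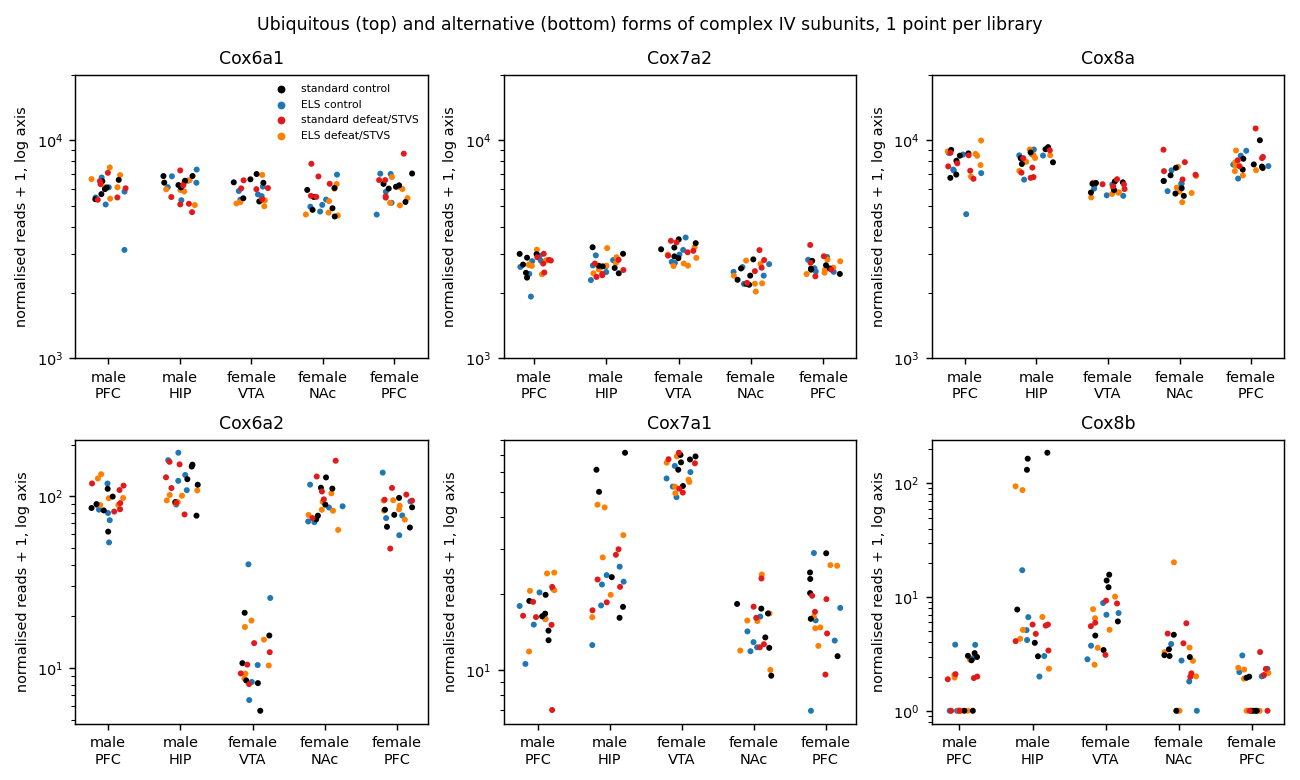
Normalised reads + 1 (log axis) in every library of 5 sets for 3 common forms (top) and 3 tissue-restricted forms (bottom) of complex IV subunits, coloured by condition. Cox6a2 is low in all 22 female VTA libraries, Cox7a1 is high there, and Cox8b reaches 184.6 in a few HIP libraries.

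Cox8b separated HIP libraries from each other. Its values in the 24 HIP libraries ran from 1.00 to 184.6 normalised reads with a median of 4.37. In the 6 libraries with Ttr over 10000 normalised reads Cox8b ran from 16.2 to 184.6, and in the other 18 from 1.00 to 6.77, with no overlap. Ttr encodes transthyretin, the main secreted product of the choroid plexus, which lies against the hippocampus. The highest Cox8b values were in standard control 6 (184.6, Ttr 214600), 4 (163.5, Ttr 250300) and 1 (130.4, Ttr 171500) and in ELS defeat 2 (93.1, Ttr 164700) and 5 (86.1, Ttr 124400). Outside HIP, Cox8b reached 19.2 in female NAc, where Ttr reached 40770, and no PFC library exceeded 2.82. In the separately normalised male NAc table it was 22.3 in ELS P10-20 defeat 4 and at most 7.42 in the others. The 2 choroid plexus genes of that table summed to 1119 in the same library and to at most 26.4 in the others.

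Cox6b2 and Cox7a1 were raised in the same HIP libraries. With Ttr over 10000, Cox6b2 had a median of 129.4 normalised reads (30.1 to 176.0) against 38.8 (24.5 to 82.7) in the rest. Cox7a1 had 46.4 (11.6 to 70.4) against 21.0 (15.1 to 32.9). These ranges overlap, because ELS control 4, the library of lowest Ttr among the 6 (17420), had 30.1 and 11.6. Cox6a2 and Cox4i2 were not raised. Cox6a2 had a median of 104.6 (76.1 to 132.0) in the 6 libraries and 109.1 (77.4 to 178.2) in the rest. Cox4i2 lay somewhat lower in the 6 libraries, with 23.9 (11.4 to 32.4) against 29.0 (20.0 to 43.3). Its lowest HIP values were in standard controls 1 (11.4) and 4 (12.5), both with Ttr over 10000. With no filter, 4 of these forms were called between HIP and PFC: Cox8b (log2 3.69 ± 0.82, limma adjusted p = 0.000432), Cox6b2 (1.81 ± 0.35, limma adjusted p = 5.24e-05) and Cox7a1 (1.04 ± 0.29, limma adjusted p = 0.00555) higher in HIP, and Cox4i2 (-0.72 ± 0.18, limma adjusted p = 0.00157) lower. Of the 6 HIP standard controls, 3 had Ttr over 10000. Without the libraries that stood apart (3 HIP and 4 PFC controls left) none of these calls held: Cox8b stood at 0.99 (limma adjusted p = 0.232), Cox6b2 at 0.72 (0.136), Cox7a1 at 0.26 (0.674) and Cox4i2 at -0.27 (0.394).

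Under stress, no member was called in any of the 49 contrasts of rearing, adult stress and their interaction by limma, and no other gene was either, so 0% of all genes were called in each. Nor was a member called in any of 201 alternative fits, of which 13 called at least 1 other gene, edgeR among those with 0. At an unadjusted p under 0.05, limma had 0 to 14 members and 1.34% to 16.7% of all genes per contrast. The member medians were small. The mean log2 level of the expressed subunits had a spread within groups (pooled SD) of 0.09 in male VTA, 0.05 in male NAc, 0.13 in male PFC, 0.09 in male HIP, 0.09 in female VTA, 0.12 in female NAc and 0.11 in female PFC.

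The largest medians were in female NAc, male HIP and female VTA. In female NAc, standard-reared STVS mice had 37 of 39 members above the standard controls, with a median of 0.15 (all genes 0.01), and 14 had an unadjusted p under 0.05, beside 6.16% of all genes. The mean log2 level of the 38 subunits was 11.19 ± 0.14 (SD, n = 5) against 11.05 ± 0.10 (n = 6). Cox8a had the smallest p. STVS libraries held 6944, 7933, 6606, 7214 and 9045 normalised reads and controls 6499, 5693, 6022, 5558, 6904 and 7473. The groups overlapped (log2 difference 0.25 ± 0.10, limma adjusted p = 0.730). STVS 5 was highest, and without it the median was 0.08.

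After ELS, STVS in female NAc lay lower than after standard rearing, with 35 of 39 members lower, a median of -0.16 and 14 at an unadjusted p under 0.05 (13.3% of all genes). Cox7c, a small complex IV subunit, held 2466, 2529, 2253, 2753, 2889 and 2551 normalised reads after ELS and STVS and 3000, 3036, 2687, 2957 and 3600 after STVS alone. Only the lowest STVS library overlapped with the ELS group (-0.25 ± 0.08, limma adjusted p = 0.298). Without STVS 5 this median was -0.09, and without the libraries that stood apart it was -0.18. ELS and STVS together gave a median of 0.00 against standard controls, with 20 members higher and 19 lower. The interaction had a median of -0.21 (-0.14 without STVS 5), with 37 of 39 members negative and a smallest adjusted p among members of 0.612 (limma). These contrasts share groups. Complex I medians were 0.15 for STVS alone, -0.13 for ELS and STVS against STVS, and -0.23 for the interaction. Blood genes had medians of 0.99, -1.11 and -1.23 over 5 genes, and their summed level reached 10460 normalised reads in 1 library after STVS alone, where the controls ran from 751.4 to 1241. Cortical glutamate neuron genes had a median of -1.69 for ELS and STVS against STVS. Their part was not tested.

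In male HIP, standard-reared mice had lower levels after defeat, with 37 of 39 members below the controls, a median of -0.11 (all genes -0.01) and 14 at an unadjusted p under 0.05, beside 14.4% of all genes. Atp5k, subunit e of the ATP synthase, held 1352, 1394, 1333, 1797, 1342 and 1363 normalised reads after defeat and 1864, 1635, 1636, 1647, 2036 and 1657 in controls. All defeated libraries except 1, defeat 4, lay below every control (-0.29 ± 0.09, limma adjusted p = 0.287). Atp5e, the epsilon subunit, fell short of a call likewise, with -0.21 ± 0.07 (limma adjusted p = 0.287). The choroid plexus list had a median of -3.82 in this contrast, and its summed level ran from 436.8 to 277700 in controls and from 326.3 to 832.2 after defeat. Oligodendrocyte genes had a median of -0.57, blood genes 1.17 and complex I -0.12. The part of these markers was not tested. Without the libraries that stood apart the member median was -0.10.

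After ELS the values in HIP were smaller. Defeat after ELS gave a median of 0.03 against ELS controls, with 30 of 39 members higher, which became -0.03 without the libraries that stood apart and ran from 0.00 to 0.06 when 1 library was left out. It gave 0.09 against defeat after standard rearing, which fell to 0.03 without the libraries that stood apart. The interaction had a median of 0.16, or 0.06 without the libraries that stood apart, with 36 of 39 members positive, 11 at an unadjusted p under 0.05 (11.8% of all genes) and a smallest adjusted p among members of 0.368 (limma). The choroid plexus list had a median of 5.15 in the interaction, and its part was not tested.

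In female VTA, ELS with STVS lay below standard controls for 37 of 39 members, with a median of -0.11 (all genes 0.00) and 10 at an unadjusted p under 0.05, beside 11.6% of all genes. Cox7a2, the common form of subunit 7a, held 3236, 2986, 2887, 2660, 2650 and 2721 normalised reads after both stresses and 3220, 2933, 3513, 3161, 2878 and 3373 in standard controls. The groups overlapped (-0.16 ± 0.07, limma adjusted p = 0.429). Atp5sl, which carries the name only, had the smallest p (-0.12 ± 0.05, limma adjusted p = 0.429). Library ELS STVS 1 stood above its group, with a subunit mean of 11.39 against 11.13 to 11.22, and without it the median was -0.14. Against STVS alone the median was -0.10 (38 of 39 lower), and ELS alone gave -0.06 (37 of 39 lower), or -0.04 without standard control 3, which is also the library of these groups that stood apart, and -0.04 without ELS control 5. The complex I median was -0.11 in the first of these, oligodendrocyte genes had -0.16 and neuron genes -0.11. The part of these markers was not tested.

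**Figure D4:**
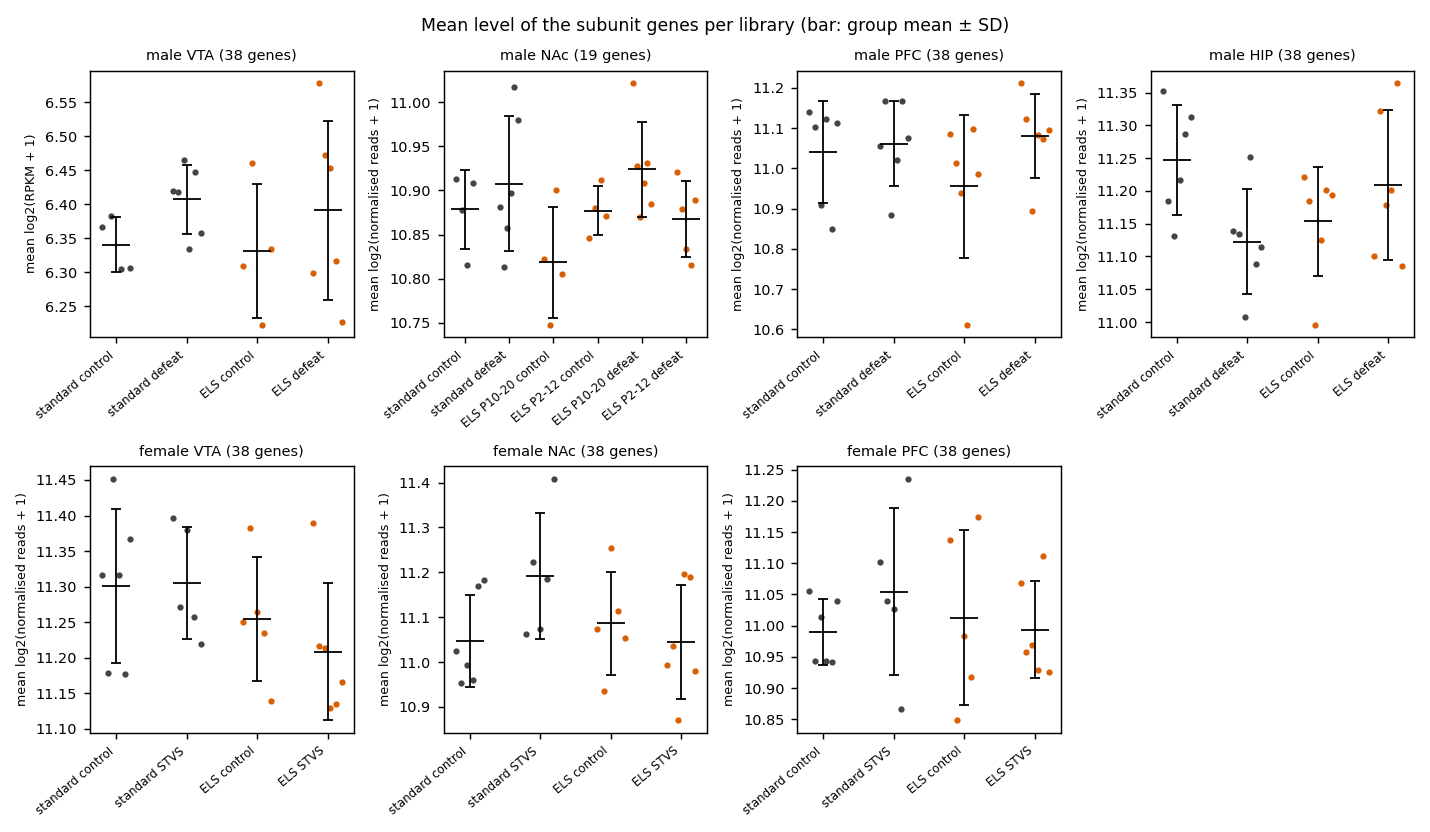
Mean log2 level of the expressed subunits in each library, by group, with the group mean ± SD, in 7 sets with separate y axes (RPKM + 1 for male VTA, normalised reads + 1 elsewhere; 19 genes in male NAc and 38 elsewhere). Groups overlap in every panel, and male PFC ELS control 4 is the lowest point of its set at 10.61.

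Elsewhere the medians were smaller still. In male VTA, defeat after standard rearing had 39 of 43 members higher, with a median of 0.08 (all genes -0.02) and 0 at an unadjusted p under 0.05. Atp5a1, the alpha subunit of the ATP synthase, held 369.7, 376.6, 374.8, 356.1, 364.3 and 341.5 RPKM after defeat and 343.9, 351.2, 340.0 and 331.5 in controls. Only 1 defeated library fell inside the control range (0.09 ± 0.04 on the log2(RPKM + 1) scale, limma adjusted p = 0.691). In male NAc, defeat after ELS from day 10 to 20 had 22 of 23 members above its control, with a median of 0.07 (0.11 without ELS P10-20 control 3) and 5 at an unadjusted p under 0.05 (8.41% of all genes). Cox5a had 1824 ± 89.4 against 1672 ± 153 normalised reads there (SD, n = 6 and 4; limma adjusted p = 0.583). After ELS from day 2 to 12 the same contrast had a median of 0.00 and 12 of 23 members higher.

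In male PFC, 36 of 38 members lay lower in ELS controls than in standard controls, with a median of -0.07 and 0 at an unadjusted p under 0.05. In ELS control 4, 35 of 38 expressed subunits lay below the group's median, and without that library the median was -0.01. It was -0.02 without standard controls 1 and 4, which stood apart, and -0.11 without standard control 5. Defeat after ELS gave 0.09 against ELS controls, with 5 members at an unadjusted p under 0.05 (16.7% of all genes). This median was 0.03 without ELS control 4 and 0.06 without ELS defeat 1. Atp5e had the smallest p (1804 ± 141 against 1570 ± 250 normalised reads, SD, n = 6; 0.22 ± 0.09, limma adjusted p = 0.245). In female PFC, STVS after standard rearing had 38 of 38 members higher, with a median of 0.07 (0.02 without standard STVS 5, 0.04 after quantile normalisation) and 3 at an unadjusted p under 0.05 (5.04% of all genes). Cox5a led with 1684 ± 91.6 (n = 5) against 1509 ± 95.3 normalised reads (n = 6) and a log2 difference of 0.16 ± 0.06 (limma adjusted p = 0.861). Its interaction was -0.28 ± 0.08 (limma adjusted p = 0.584), and the member median of the interaction was -0.09, or -0.05 without standard STVS 5 or without ELS control 5.

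**Figure D5:**
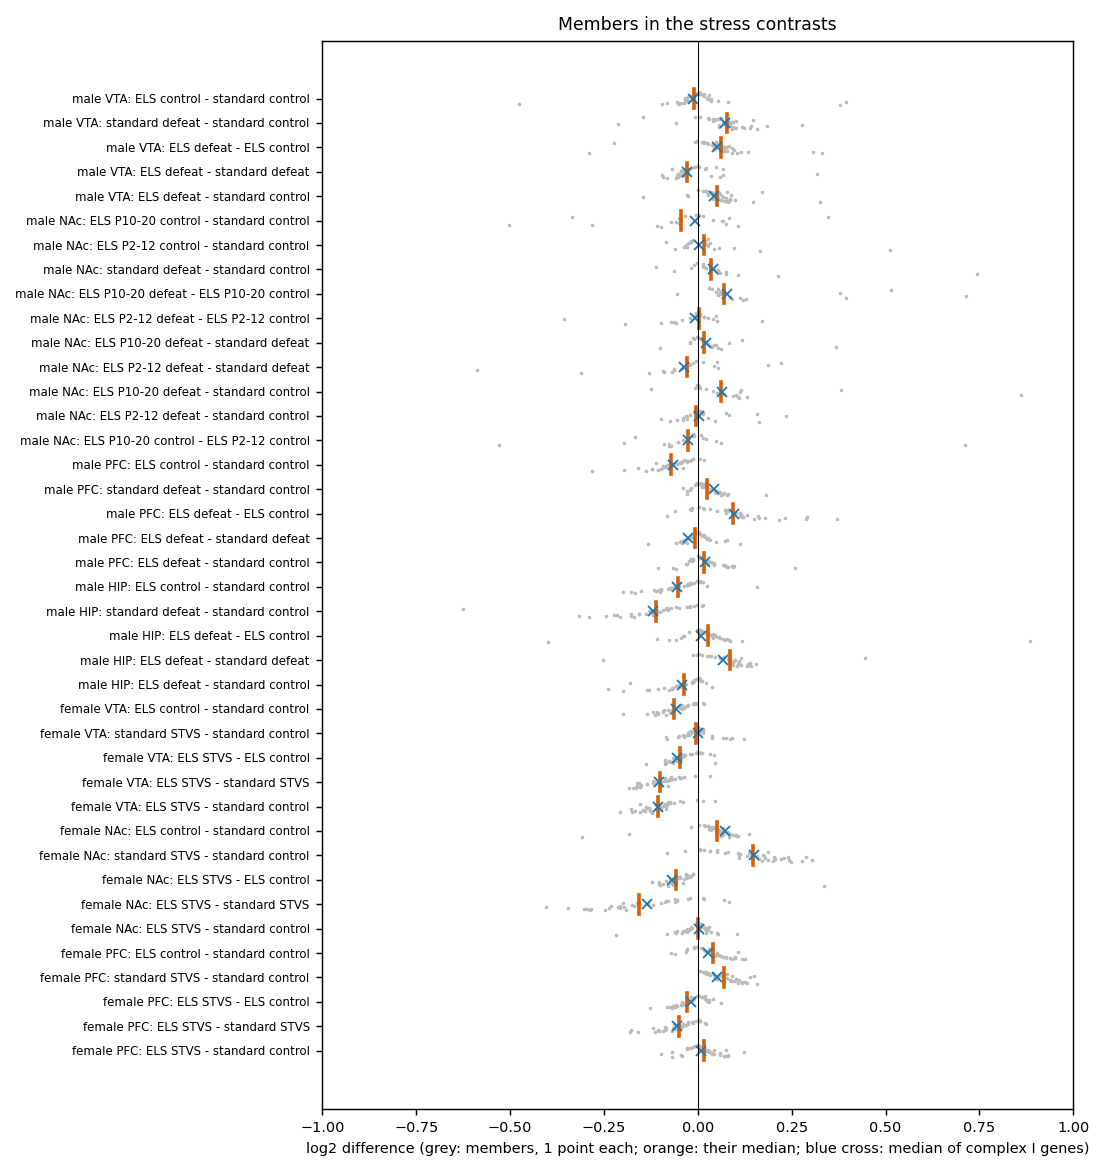
Log2 differences of the members (grey points) in 40 stress contrasts, with their median (orange bar) and the median of the complex I genes (blue cross). Medians lie between -0.16 and 0.15, most crosses lie close to the bar, and 3 points of low genes fall outside the axis.

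In part of the libraries the members moved together. In 29 of 163 libraries, all but at most 3 of the expressed subunits lay on 1 side of their group's median. This cut is looser in male NAc, with 19 subunits, than elsewhere, with 38. The same count was not made for other genes, so it does not show a trait particular to these members. In 4 libraries all 38 were on 1 side: male PFC standard control 3 (-0.17), standard control 5 (-0.23) and ELS defeat 3 (-0.19) were below, and female NAc ELS STVS 4 (0.16) was above, as median log2 departures. The widest departures were male PFC ELS control 4 (-0.39) and female NAc standard STVS 5 (0.27). Counts of members on 1 side, such as 37 of 39, are thus counts over genes measured in the same few libraries.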

How the data were processed

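The data were 163 poly-A RNA libraries in 3 deposited tables; 16 ChIP and input samples were not analysed here. The male VTA table holds RPKM made by the authors, and the submitters' processing notes name TopHat2, HTSeq and both mm9 and mm10, with the build of the RNA values left unstated. The other 2 tables hold a deposited signal, gene counts divided by 1 factor per library, with HISAT, HTSeq and mm10 named in the same notes. Of their positive values, 100% were whole multiples of 1 step per library (tolerance 0.001), which gave the depth; edgeR on these reads called 0 genes under stress. Tables were normalised separately, so no test crosses tables. Sample groups were read from the labels; for 10 female NAc libraries the adult condition came from the title.

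Values were fitted as log2(value + 1) with limma 3.58.1 (trend and robust, R 4.3.3) in each region and sex, on the 14000 genes of highest mean, or those of at least 0.5 mean RPKM in male VTA, and calls were made at a Benjamini-Hochberg adjusted p under 0.05 over all of them. Alternatives were no filter, quantile normalisation, a pseudocount of 10 reads or 0.1 RPKM, edgeR 4.0.16 on recovered reads, a replicate block, leaving out libraries, and the mean of 4 condition groups. The fit was tested on simulated data with log2 changes of 0.5 and 1, each gene drawn on its own. It recovered 60% to 85% of the changes of 0.5 and 91% to 99% of those of 1, with 3 to 13 false calls per contrast. Smaller changes, such as the stress medians above, and genes that move together were not simulated. A library stood apart if Xist was over 200 in a male, Ddx3y was over 50 or Xist under 0.5 of the median in a female, or Ttr was over 10000. These limits are in normalised reads and were not applied to male VTA.

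Named members between regions were up to 5 called genes at each end of the log2 difference; in stress contrasts they were those of smallest p; the alternative forms of a subunit and members with 1 library apart were named too. The members and lists were chosen with earlier results of these data known. The labels give no litters, so p-values measure only the spread between these samples.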

Additional observations from a re-analysis of the deposited data

Results flagged for a closer look

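Libraries whose value lay far from the rest of their group by Dixon's criterion are given here for the mean of the expressed subunits and for the alternative forms of a subunit. Over all members, 64 of 1110 gene and group pairs met it (5.77%), and 2 of 30 groups did for the mean (6.67%), where chance gives about 5%. The subunit mean was 11.39 in female VTA ELS STVS 1, above the 11.129 to 11.217 of its group, and 10.612 in male PFC ELS control 4, below the 10.94 to 11.097 of its group.

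Male VTA ELS control 2 had Cox6a2 at 13.25 (others 0.4245 to 0.4758, highest), in RPKM. Male NAc ELS P2-12 defeat 1 had Atp5g1 at 3375 (others 3094 to 3140, highest), in normalised reads. Male PFC ELS control 4 had Atp5g3 at 4202 (others 5688 to 6229, lowest), Cox4i1 at 5102 (others 7380 to 8751, lowest), Cox6a1 at 3141 (others 5074 to 6745, lowest) and Cox8a at 4579 (others 7067 to 8752, lowest), in normalised reads. Male PFC standard defeat 4 had Cox4i2 at 21.99 (others 30.76 to 35.74, lowest), in normalised reads. Male PFC standard defeat 2 had Cox6b2 at 36.67 (others 16.92 to 20.55, highest), in normalised reads. Male PFC standard defeat 3 had Cox7a1 at 5.999 (others 14.1 to 20.27, lowest), in normalised reads. Male HIP ELS defeat 6 had Atp5g3 at 5537 (others 6667 to 7154, lowest), in normalised reads. Male HIP ELS control 3 had Cox4i1 at 6098 (others 7564 to 8145, lowest) and Cox8a at 6593 (others 8246 to 9063, lowest), in normalised reads. Male HIP standard defeat 4 had Cox6b1 at 3981 (others 3218 to 3421, highest), in normalised reads. Female VTA standard control 3 had Atp5g2 at 1778 (others 1626 to 1675, highest), in normalised reads. Female VTA ELS STVS 1 had Atp5g3 at 8801 (others 7209 to 7671, highest), Cox4i1 at 10260 (others 7995 to 8459, highest) and Cox6a1 at 6933 (others 4980 to 5299, highest), in normalised reads. Female NAc standard STVS 5 had Atp5g2 at 2598 (others 1895 to 2020, highest) and Cox6c at 5671 (others 4024 to 4377, highest), in normalised reads. Female PFC standard STVS 4 had Cox6a2 at 48.59 (others 93.22 to 110.8, lowest), in normalised reads. Female PFC standard STVS 5 had Cox8a at 11320 (others 7599 to 8381, highest), in normalised reads. Female PFC standard control 6 had Cox8a at 9994 (others 7336 to 8221, highest), in normalised reads.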

How the results depend on the processing

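Of 1733 values recomputed under an alternative, 1697 kept their direction and side of the threshold, or moved by less than the spread. Interactions apart, all 699 recomputed stress medians moved by less than the spread between libraries, and all 349 of those with a size of at least 0.05 kept their sign. That spread (0.05 to 0.13) was larger than most of these medians, so moves within it can be large beside the median. In male PFC, the median of ELS controls against standard controls, -0.071, ran from -0.112 to -0.007 when 1 library was left out. In male HIP, the median of defeat after ELS against ELS controls went from 0.027 to -0.025 without the libraries that stood apart. With no filter, 1 gene was called over the stress contrasts in male NAc and 1 in female VTA, in place of 0. Leaving out 1 library gave 0 to 70 genes in male NAc (70 without ELS P10-20 control 3), 0 to 35 in male PFC (35 without ELS control 1) and 0 to 3 in female NAc, and no member in any. Between VTA and PFC, quantile normalisation moved the member median from 0.364 to 0.483. Between NAc and PFC, the mean of 4 condition groups called 24 members in place of 12. Between HIP and PFC, quantile normalisation called 25 and the mean of 4 groups 24 in place of 15, and leaving out 1 library gave 7 to 18. Chosen after seeing the data, the interaction medians and the forms below the filter were refitted without the libraries that stood apart: the HIP interaction moved from 0.158 to 0.061, and all 4 calls of such forms between HIP and PFC were lost (Cox8b 0.987, Cox6b2 0.72, Cox7a1 0.259, Cox4i2 -0.271). The causes were not tested. Same-numbered libraries had median correlations of deviations of 0.019 to 0.168, beside -0.037 to 0.002 for libraries of other numbers. None of the 10 comparisons was over 0.1 in every pair. Whether a shared number means a shared mouse or batch cannot be told from these values. With the replicate block, members called were 31 (VTA against NAc), 33 (VTA against PFC), 13 (NAc against PFC) and 18 (HIP against PFC), and 0 genes were called under stress. No replicate block was fitted in male NAc, where the labels give no replicate number. None was fitted between the PFC libraries of the sexes either, which, though numbered alike, came from separate cohorts. Depth is unknown in male VTA.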
